A study of Drosophila melanogaster
Mus musculus with 4 samples.

Results

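Chromatin accessibility was examined around 14 genes of the p53 response and of cell cycle arrest in early B cell precursors that lacked Hdac3. The members are accessible sites whose start lies in one of 14 windows of the mm10 genome, each named for 1 gene: Cdkn1a, Cdkn1b, Cdkn2a, Cdkn2c, Trp53, Mdm2, Ccng1, Bbc3, Bax, Pmaip1, Fas, Btg2, Sesn1 and Zmat3. The windows are 210 to 290 kb long and hold 218 of the 69709 sites of the whole table, between 6 (Cdkn2a) and 27 (Cdkn1a) sites each. Membership went by position alone, so a window can also hold sites of neighbouring genes. No mouse annotation was used here, and which site lies at the start of the named gene was not determined.

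The libraries were 2 from Hdac3-deleted (HDAC3 KO) mice and 2 from wild-type Hdac3+/+ mice, all C57BL/6 and 8 weeks old. Bone marrow cells positive for B220 and CD43, markers that together define early B cell precursors, had been sorted, 50000 per library, and mixed with 5% Drosophila S2 cells. ATAC-seq measures open chromatin through a transposase that inserts adapters where DNA is exposed. The labels name neither the Hdac3 allele nor a Cre driver nor the sex of the mice. Nor do they say whether 2 replicates are 2 animals. The p-values therefore measure only the spread between these libraries, which may be technical for the Hdac3-deleted ones. In sorted populations, a site open in fewer cells and a site less open in each cell cannot be told apart.

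The protein p53, encoded by Trp53, is a transcription factor that is held low by the ubiquitin ligase Mdm2 and accumulates after DNA damage. It then activates genes that stop the cell cycle, such as Cdkn1a, and genes that kill the cell, such as Bbc3, Bax, Pmaip1 and Fas. Early B cell precursors alternate between proliferation and the DNA breaks of V(D)J recombination, and cyclin-dependent kinase (CDK) inhibitors hold cells out of the cycle during recombination. Hdac3 encodes a histone deacetylase that acts in nuclear corepressor complexes.

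The sites of the 14 windows held 84973 and 65261 reads in Hdac3-deleted replicates 1 and 2 and 131667 and 77829 reads in wild-type replicates 1 and 2, of 16132402 to 32988999 reads per library in all sites. The median member held 176.5 and 138.5 reads in Hdac3-deleted replicates 1 and 2 and 243.5 and 148 reads in wild-type replicates 1 and 2. Values below are normalized reads per site, that is, reads multiplied by 1 factor per library, as deposited. Wild-type replicate 2 stood apart on the sex chromosomes: 27 of 1500 sites of chromosome X lay more than 8-fold below each other library, against 0 for each of the other libraries, and it had 10 peaks on chromosome Y below 50 Mb, against 0. Because only 1 of the 2 wild-type libraries had these chromosome Y peaks, the 2 were not repeats of the same cells. A difference in sex between them was not tested for its effect on the windows. None of the 14 windows lies on X or Y. For each 100 tags left after the authors' filtering, 36.6 and 44.0 reads fell in sites in Hdac3-deleted replicates 1 and 2 and 46.8 and 36.4 in wild-type replicates 1 and 2.

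The first comparison asked how many of these sites differed when Hdac3 was deleted. In Hdac3-deleted cells accessibility rose at 18 of the 218 sites and fell at 13, while 187 did not pass the test. The test was limma on log2(normalized reads + 1), fitted to all sites, with Benjamini-Hochberg adjusted p under 0.05. The called share among the members, 14.2%, stood beside 20.6% of all 69709 sites; for higher calls it was 8.26% of the members against 11.7% of all sites, and for lower calls 5.96% against 8.9%. The median log2 fold change (Hdac3-deleted minus wild type) was -0.00 over the members and -0.01 over all sites. A log2 fold change above 1 in size was found at 16 members (7.34%), against 13.3% of all sites. Both Hdac3-deleted libraries lay above both wild-type libraries at 61 members and below them at 65 (28.0% and 29.8%), against 30.1% and 30.5% of all sites. Without wild-type replicate 1 the calls were 9 higher and 7 lower, and without Hdac3-deleted replicate 1 they were 9 higher and 9 lower. Without wild-type replicate 2, 17 were higher and 10 lower. When reads were instead scaled to filtered tags, 13 calls were higher but 2 were lower. The reads per tag given above set this scaling and differ between replicates of both genotypes. They were 44.0 and 46.8 in Hdac3-deleted replicate 2 and wild-type replicate 1, whose deposited columns carry the letter A. The libraries of letter B, Hdac3-deleted replicate 1 and wild-type replicate 2, had 36.6 and 36.4. With this scaling the median log2 fold change of the members was -0.01. The part of the reads per tag in the loss was not tested. The edgeR quasi-likelihood test on whole reads called 18 members higher and 12 lower, against 12.3% and 8.71% of all sites, and DESeq2 called 12 higher and 10 lower, against 9.23% and 6.67% of all sites.

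The 18 higher sites had a median width of 334.5 bp and a median level of 96.9 normalized reads, and 13 of them changed by more than 1 on the log2 scale. The 13 lower sites had a median width of 898 bp and a median level of 583 reads, and 2 of them changed by more than 1. The whole table had a like pattern. Its median log2 fold change was 1.18 at higher and -0.89 at lower calls, beside 1.18 and -0.80 in the members. Of sites below the median level of the table, 4083 were higher and 2119 lower, beside 11 and 3 members. At or above that level 4050 were higher and 4083 lower, beside 7 and 10 members. All 31 called sites had both libraries of one genotype above both of the other, as did 60.6% of all sites. The test that chose them on these same libraries favours such sites, so this adds no support. Calls of both directions occurred in 4 windows, higher calls alone in 4, lower calls alone in 4, and no call in 2. Among the 120 members in the central parts of the windows 8 were higher and 9 lower, and among the 98 nearer the edges 10 were higher and 4 lower. No test between these classes was run.

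**Figure D1:**
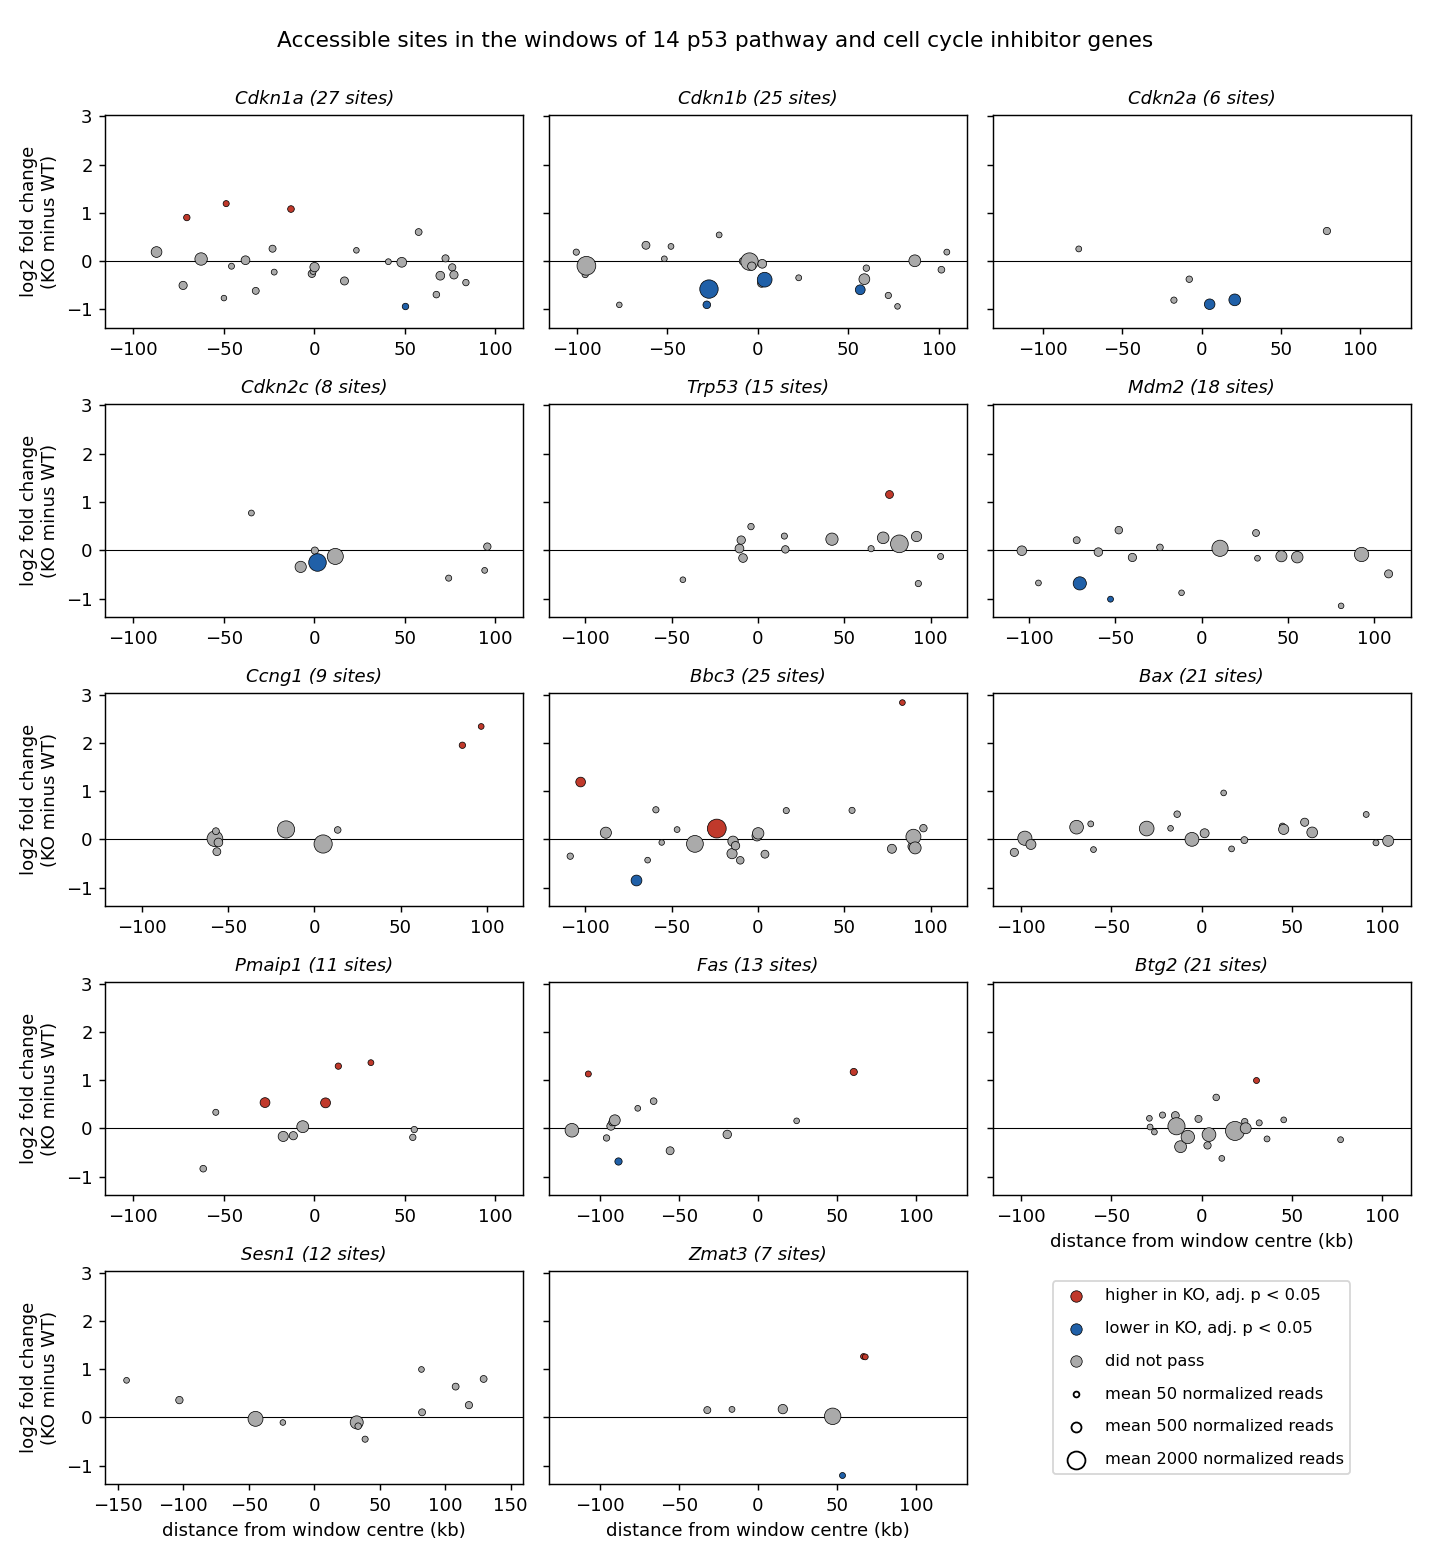
Each panel shows 1 window; each circle is an accessible site, placed by its distance from the window's centre (kb) and by its log2 fold change (KO, Hdac3-deleted, minus WT, wild type), with its area following the mean normalized reads of the 4 libraries. Red circles are the 18 higher and blue circles the 13 lower sites (limma, Benjamini-Hochberg adjusted p under 0.05), and grey circles did not pass. Of the 13 blue circles, 8 lie in the first 4 panels, those of the CDK inhibitors. These panels hold 66 of the 218 sites, and 12.1% of the 66 were lower, against 8.9% of all sites. With reads scaled to filtered tags, 1 of these 8 lower calls passed.

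The most open site of each window changed little in 12 of 14 windows. These 14 sites, chosen by the highest mean level, were 920 to 1666 bp wide, averaged 762 to 2289 normalized reads and had a peak in each library. Per base they held 0.670 to 2.41 normalized reads, against a median of 0.437 over the members. Their log2 fold change was below 0.25 in size in 12 windows. The exceptions were the Cdkn2a window (-0.80) and the Cdkn2c window (-0.25). A rise of 0.22 in the Bbc3 window passed the test. For the 11 that did not pass, the log2 fold changes lay between -0.10 and 0.22, and the 95% confidence intervals between -0.27 and 0.43, so larger changes were outside these intervals.

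**Figure D2:**
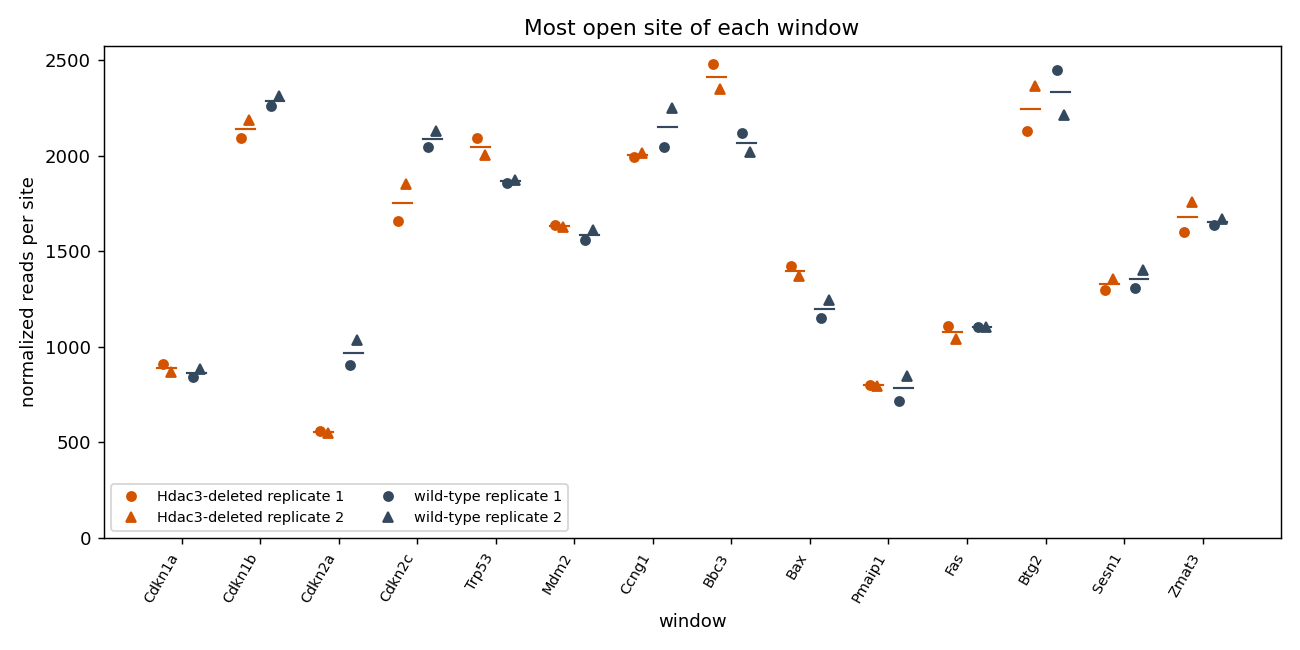
Normalized reads per site at the most open site of each window, in Hdac3-deleted (orange) and wild-type (dark) libraries; circles are replicate 1, triangles replicate 2 and lines the group means, on a linear axis from 0. The Cdkn2a site shows the widest gap relative to its level, with 561 and 549 reads in Hdac3-deleted libraries and 905 and 1035 in wild type, while the libraries of both genotypes overlap at 6 of the 14 sites.

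The CDK inhibitor windows held 66 sites, of which 8 were lower, 3 were higher and 55 did not pass. The lower calls made up 12.1% and the higher calls 4.55%, against 8.9% and 11.7% of all sites. With reads scaled to filtered tags, 1 of the 8 lower calls (chr4:89294447-89295786, by Cdkn2a) and 2 of the 3 higher calls passed. The summed normalized reads of the 66 sites were 22011 and 22935.1 in Hdac3-deleted replicates and 25958 and 26128.7 in wild-type replicates, a ratio of 0.863. Both Hdac3-deleted libraries lay below both wild-type libraries at 29 sites (43.9%) and above them at 9 (13.6%), beside 30.5% and 30.1% of all sites. The shares were not tested between gene groups. With 2 libraries per genotype, an exact permutation test of a sum cannot give a p below 0.333.

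Cdkn2a encodes the CDK4/6 inhibitor p16INK4a and the Mdm2 inhibitor p19ARF. Its window had the lowest ratio of the 14: the summed sites held 1474 and 1348 normalized reads in Hdac3-deleted replicates and 2022 and 2297 in wild-type replicates, a ratio of 0.653. The site at chr4:89294447-89295786 held 451 and 365 reads in Hdac3-deleted replicates 1 and 2, against 671 and 845 in wild-type replicates 1 and 2. Both Hdac3-deleted libraries were low and the groups did not overlap, as at every called site (log2 fold change -0.89 ± 0.16 SE, limma adjusted p = 0.00124). At chr4:89310507-89311429, 14.7 kb further on, Hdac3-deleted libraries held 561 and 549 reads and wild-type libraries 905 and 1035 (log2 fold change -0.80 ± 0.13 SE, limma adjusted p = 0.000604). The fall at the first of these sites passed under every alternative fit that was run; the second missed the threshold when reads were scaled to filtered tags (limma adjusted p = 0.0786). The other 4 sites did not pass, with log2 fold changes from -0.81 to 0.63, and those nearest to the threshold pointed in opposite directions (picked out after their values were seen). At chr4:89272408-89272659 Hdac3-deleted libraries held 64.9 and 65.1 reads and wild-type libraries 124 and 106 (log2 fold change -0.81, limma adjusted p = 0.0564). At chr4:89368914-89369472 Hdac3-deleted libraries held 205 and 247 reads and wild-type libraries 153 and 138 (log2 fold change 0.63, limma adjusted p = 0.0535).

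Cdkn1b encodes p27Kip1, an inhibitor of CDK2 complexes that holds lymphocytes in quiescence. Of its 25 sites 4 were lower and 0 higher, against 8.9% and 11.7% of all sites, and both Hdac3-deleted libraries lay below both wild-type libraries at 12, against 30.5% of all sites. The broad site at chr6:134897082-134898839 held 1646 and 1772 reads in Hdac3-deleted replicates, against 2585 and 2511 in wild-type replicates (log2 fold change -0.58 ± 0.08 SE, limma adjusted p = 0.000253). A narrower site 0.11 kb before it, chr6:134896543-134896971, held 146 and 158 reads in Hdac3-deleted libraries and 297 and 273 in wild type. Its log2 fold change was -0.90 ± 0.20 SE (limma adjusted p = 0.00585). Both neighbours fell. At each of them the replicates of a genotype lay close to each other, which the test that chose the sites favours, so this adds no support. Lower levels were also measured at chr6:134928260-134929242 (1054 and 1214 reads in Hdac3-deleted libraries, 1483 and 1467 in wild type; log2 fold change -0.38, limma adjusted p = 0.0136). At chr6:134981249-134981909 Hdac3-deleted libraries held 371 and 395 reads and wild-type libraries 564 and 590 (log2 fold change -0.59, limma adjusted p = 0.0101). At the top of the window in level, chr6:134829748-134830667, held 2094 and 2189 reads in Hdac3-deleted and 2259 and 2313 reads in wild-type libraries and did not pass (log2 fold change -0.09, 95% confidence interval -0.25 to 0.06). With reads scaled to filtered tags, none of these 4 sites passed, at log2 fold changes of -0.91, -0.59, -0.39 and -0.60 (limma adjusted p of 0.0510, 0.234, 0.534 and 0.260 in order of position). The fall at chr6:134928260-134929242 also missed the threshold without Hdac3-deleted replicate 1 (limma adjusted p = 0.101) and without wild-type replicate 1 (limma adjusted p = 0.0663).

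Cdkn2c encodes p18INK4c, an inhibitor of CDK4 and CDK6. Of its 8 sites 1 was lower and 0 higher (12.5% and 0%, against 8.9% and 11.7% of all sites). This was the most open site, chr4:109665633-109667298, which held 1656 and 1852 reads in Hdac3-deleted replicates and 2048 and 2128 in wild-type replicates. That fall was small (log2 fold change -0.25 ± 0.08 SE, limma adjusted p = 0.0427). It stayed past the threshold in 6 of 15 alternative fits: the edgeR quasi-likelihood test gave an adjusted p of 0.0554 and DESeq2 0.0966, and limma gave 0.231 without Hdac3-deleted replicate 1 and 0.117 and 0.199 without wild-type replicates 1 and 2. The other 7 sites had log2 fold changes between -0.58 and 0.77. The authors' deposited table calls 2 of these at an FDR under 0.05, and not the most open site (authors' FDR 0.493). One, chr4:109630128-109630419, is higher (authors' log2 fold change 0.77, FDR 0.0190). The other, chr4:109739190-109739480, is lower (authors' log2 fold change -0.67, FDR 0.04995).

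Cdkn1a encodes p21Cip1, the CDK inhibitor through which p53 stops the cell cycle. Its window had 3 higher sites (11.1%, against 11.7% of all sites) and 1 lower site (3.70%, against 8.9% of all sites) among 27. All 4 were narrow and of modest level. At chr17:29082003-29082319 Hdac3-deleted libraries held 186 and 154 reads and wild-type libraries 61.8 and 102 (log2 fold change 1.08 ± 0.29 SE, limma adjusted p = 0.0137). At chr17:29046153-29046530 the levels were 143 and 73.1 reads in Hdac3-deleted and 50.5 and 38.6 in wild-type libraries (log2 fold change 1.19, limma adjusted p = 0.0278), so Hdac3-deleted replicate 1 was the high one. At chr17:29024386-29024771 they were 125 and 150 reads in Hdac3-deleted and 68.4 and 77.1 in wild-type libraries (log2 fold change 0.91, limma adjusted p = 0.0273). The lower site, chr17:29145198-29145435, held 83.9 and 67.8 reads in Hdac3-deleted and 147 and 143 in wild-type libraries (log2 fold change -0.93, limma adjusted p = 0.0215). Genotypes overlapped at the most open site, chr17:29031856-29033105, with 913 and 868 reads in Hdac3-deleted and 842 and 883 in wild-type libraries. Each of the 4 calls was lost without at least 1 library: limma gave adjusted p of 0.0722 and 0.156 at chr17:29082003-29082319 without Hdac3-deleted replicate 1 and wild-type replicate 1, and 0.284 and 0.0786 at chr17:29046153-29046530 without Hdac3-deleted replicate 1 and wild-type replicate 2. It gave 0.109 and 0.141 at chr17:29024386-29024771 without Hdac3-deleted replicate 2 and wild-type replicate 1, and 0.0679, 0.128 and 0.0730 at the lower site without Hdac3-deleted replicate 2 and wild-type replicates 1 and 2; both of these sites also missed the threshold with reads scaled to filtered tags (0.0733 and 0.0526), and the first of them with DESeq2 (0.0518).

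The windows of Trp53 and of its feedback regulators Mdm2 and Ccng1 held 42 sites, of which 3 were higher, 2 were lower and 37 did not pass (7.14% and 4.76%, against 11.7% and 8.9% of all sites). Their summed normalized reads were nearly level, 19647.1 and 20343.2 in Hdac3-deleted replicates and 19398.4 and 19987.9 in wild-type replicates. The groups overlapped in this sum.

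In the Trp53 window 1 of 15 sites was higher and 0 were lower (6.67% and 0%, against 11.7% and 8.9% of all sites). That site, chr11:69666004-69666359, held 350 and 323 reads in Hdac3-deleted replicates and 112 and 197 in wild-type replicates (log2 fold change 1.17 ± 0.24 SE, limma adjusted p = 0.00342), and passed in each of 15 alternative fits. It lies 76.2 kb from the centre of the window. By contrast, the most open site, chr11:69671161-69672734, held 2091 and 2005 reads in Hdac3-deleted and 1858 and 1875 in wild-type libraries and did not pass (log2 fold change 0.13, 95% confidence interval -0.03 to 0.30). Over the window, both Hdac3-deleted libraries lay above both wild-type libraries at 8 of 15 sites and below them at 3 (against 30.1% and 30.5% of all sites), and the summed reads were 6527 and 6239 in Hdac3-deleted and 5502 and 5766 in wild-type libraries, a ratio of 1.13.

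Mdm2 encodes the ligase that degrades p53 and is itself a p53 target. Of the 18 sites of its window 2 were lower (11.1%, against 8.9% of all sites) and 0 higher. At 10 sites both Hdac3-deleted libraries lay below both wild-type libraries (55.6%, against 30.5% of all sites). At chr10:117628960-117629977 Hdac3-deleted replicates held 682 and 865 reads and wild-type replicates 1276 and 1198 (log2 fold change -0.69 ± 0.12 SE, limma adjusted p = 0.00139); with reads scaled to filtered tags limma gave an adjusted p of 0.147. A weak site at chr10:117647134-117647414 held 44.0 and 35.9 reads in Hdac3-deleted and 71.7 and 91.9 in wild-type libraries. Its call (log2 fold change -1.01, limma adjusted p = 0.0486) was lost without any 1 of the 4 libraries, with adjusted p of 0.0523 and 0.110 without Hdac3-deleted replicates 1 and 2 and 0.134 and 0.319 without wild-type replicates 1 and 2, and in 10 of 15 alternative fits in all. Little difference was measured at the most open site, chr10:117709940-117711438, with 1636 and 1625 reads in Hdac3-deleted and 1559 and 1610 in wild-type libraries.

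Ccng1, which encodes cyclin G1, a p53 target that works with protein phosphatase 2A on Mdm2, had 9 sites. Of these, 2 were higher and 0 lower (22.2% and 0%, against 11.7% and 8.9% of all sites). Both lay near one edge of the window, 85.8 and 96.7 kb from its centre. The site at chr11:40835508-40836131 held 167 and 151 reads in Hdac3-deleted replicates, against 46.5 and 35.2 in wild-type replicates (ratio 3.90, log2 fold change 1.95 ± 0.30 SE, limma adjusted p = 0.000542). At chr11:40846529-40846880 the levels were 78.9 and 86.4 reads in Hdac3-deleted and 19.3 and 12.5 in wild-type libraries (ratio 5.21, log2 fold change 2.34 ± 0.43 SE, limma adjusted p = 0.00159). These were among the largest changes of the 218 sites; each had a peak in the Hdac3-deleted libraries only, and each passed in every alternative fit that tested it. The other 7 sites did not pass and lay between -0.26 and 0.20, among them the most open one, chr11:40754604-40755730, with 1995 and 2017 reads in Hdac3-deleted and 2046 and 2251 in wild-type libraries.

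The cell death windows held 70 sites, of which 9 were higher, 2 were lower and 59 did not pass. The higher calls made up 12.9%, near the 11.7% of all sites, and the lower calls 2.86%, against 8.9%. Both Hdac3-deleted libraries lay above both wild-type libraries at 26 sites (37.1%) and below them at 14, beside 30.1% and 30.5% of all sites. Their summed reads were 28749.8 and 27942.1 in Hdac3-deleted and 26932.9 and 27242.7 in wild-type libraries, a ratio of 1.05.

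Bbc3 encodes PUMA, a BH3-only protein that triggers the mitochondrial route of apoptosis. Its window of 25 sites had 3 higher sites and 1 lower site (12% and 4%, against 11.7% and 8.9% of all sites). The largest change of all members lay at chr7:16393582-16393792, which held 103 and 65.1 normalized reads in Hdac3-deleted replicates, against 9.96 and 11.3 in wild-type replicates. The wild-type values stood for 15 and 10 reads, so the ratio of 7.89 rests on few reads there (log2 fold change 2.83 ± 0.47 SE, limma adjusted p = 0.000840). At chr7:16206850-16207835 the levels were 697 and 574 reads in Hdac3-deleted and 212 and 363 in wild-type libraries (log2 fold change 1.19 ± 0.21 SE, limma adjusted p = 0.00125). In the opposite direction, chr7:16239170-16240067 held 418 and 462 reads in Hdac3-deleted and 791 and 791 in wild-type libraries (log2 fold change -0.85 ± 0.14 SE, limma adjusted p = 0.000666). These last 2 sites are 31.3 kb apart. The most open site, chr7:16285462-16286939, held 2478 and 2349 reads in Hdac3-deleted and 2118 and 2018 in wild-type libraries (log2 fold change 0.22, limma adjusted p = 0.0469). This small rise was lost without Hdac3-deleted replicate 1 (limma adjusted p = 0.182) and without wild-type replicates 1 and 2 (0.121 and 0.259), in DESeq2 (0.101) and with reads scaled to filtered tags (0.806), a scaling under which chr7:16239170-16240067 also missed the threshold (limma adjusted p = 0.0610) at a log2 fold change of -0.86.

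Pmaip1 encodes Noxa, another BH3-only protein. Of the 11 sites of its window 4 were higher and 0 lower (36.4% and 0%, against 11.7% and 8.9% of all sites), the most higher calls of any window. The authors' deposited table has 2 of these 4 higher and 1 other site lower at an FDR under 0.05. That lower site, chr18:66403304-66404013 (authors' log2 fold change -0.78, FDR 0.0131), did not pass in limma. Broad sites at chr18:66437484-66438128 (526 and 615 reads in Hdac3-deleted, 383 and 403 in wild-type libraries) and chr18:66470663-66471883 (624 and 527 in Hdac3-deleted, 359 and 440 in wild-type libraries) each had a log2 fold change of 0.53 (limma adjusted p = 0.0201 at the first and 0.0271 at the second). Narrower sites changed more: chr18:66478200-66478492 held 153 and 114 reads in Hdac3-deleted and 63.1 and 45.4 in wild-type libraries (log2 fold change 1.29 ± 0.31 SE, limma adjusted p = 0.00781). At chr18:66496243-66496444 Hdac3-deleted libraries held 82.9 and 83.7 reads and wild-type libraries 27.9 and 36.3 (log2 fold change 1.36 ± 0.36 SE, limma adjusted p = 0.0138). By position the most open site of the window, chr18:66458089-66459268, lies between the 4 called ones, but it did not pass. There the genotypes overlapped, with 800 and 797 reads in Hdac3-deleted and 718 and 847 in wild-type libraries. Each of these calls was lost without at least 1 library, though the fold changes kept their sign. At chr18:66437484-66438128 the log2 fold change was 0.42 and 0.50 without Hdac3-deleted replicate 2 and wild-type replicate 1. At chr18:66470663-66471883 it was 0.41 and 0.38 without Hdac3-deleted replicate 1 and wild-type replicate 1. The value was 1.08 at chr18:66478200-66478492 without Hdac3-deleted replicate 1 and 1.18 at chr18:66496243-66496444 without wild-type replicate 1. With fewer libraries a call can be lost without 1 library having made it. With reads scaled to filtered tags both broad sites missed the threshold (limma adjusted p of 0.362 and 0.370).

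Fas encodes a death receptor of the cell surface. Its 13 sites comprised 2 higher and 1 lower (15.4% and 7.69%, against 11.7% and 8.9% of all sites). The site at chr19:34370435-34370722 held 243 and 236 reads in Hdac3-deleted replicates and 96.3 and 117 in wild-type replicates (log2 fold change 1.17 ± 0.23 SE, limma adjusted p = 0.00242) and passed in each of 15 alternative fits. Near the other edge, chr19:34202765-34202989 held 122 and 67.8 reads in Hdac3-deleted and 39.2 and 43.1 in wild-type libraries, Hdac3-deleted replicate 1 being the high one (log2 fold change 1.13, limma adjusted p = 0.0353). The lower site, chr19:34221479-34221758, held 139 and 143 reads in Hdac3-deleted and 240 and 212 in wild-type libraries (log2 fold change -0.67, limma adjusted p = 0.0368). Its call was lost without any 1 of the 4 libraries (limma adjusted p of 0.0592 to 0.255) with the replicate number as a block (0.0523), with reads scaled to filtered tags (0.193) and in DESeq2 (0.0626). That of chr19:34202765-34202989 was lost without Hdac3-deleted replicate 1 (limma adjusted p = 0.302) or wild-type replicate 1 (0.118) and in DESeq2 (0.0514). Genotypes overlapped at the most open site, chr19:34192036-34192969 (1111 and 1040 reads in Hdac3-deleted, 1106 and 1104 in wild-type libraries).

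Bax encodes a pore-forming protein of the outer mitochondrial membrane. None of its 21 sites passed in limma, edgeR or DESeq2, and 3 had an unadjusted limma p under 0.05; the authors' deposited table has 1 with an FDR under 0.05. Both Hdac3-deleted libraries lay above both wild-type libraries at 9 sites and below them at 1 (42.9% and 4.76%, against 30.1% and 30.5% of all sites); the genotypes were separated at 10 of 21 sites (47.6%), against 60.6% of all sites. The summed reads were 9125 and 8906 in Hdac3-deleted and 8377 and 8326 in wild-type libraries, a ratio of 1.08. The most open site, chr7:45434182-45435129, held 1425 and 1371 reads in Hdac3-deleted and 1152 and 1244 in wild-type libraries (log2 fold change 0.22, 95% confidence interval 0.02 to 0.43, limma adjusted p = 0.117). After loess scaling against level this site passed (log2 fold change 0.30, limma adjusted p = 0.0338).

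The growth arrest and stress windows held 40 sites, of which 3 were higher, 1 was lower and 36 did not pass (7.5% and 2.5%, against 11.7% and 8.9% of all sites). Zmat3 encodes a zinc finger protein that binds RNA and is a p53 target. Its window had the largest share of calls, 3 of 7 sites (42.9%, against 20.6% of all sites). That share rests on few sites and is the top of 14 windows. All 3 were narrow and within 20 kb of the most open site, which did not pass. A pair of sites less than 1 kb apart rose: chr3:32416604-32416801 held 79.9 and 63.8 reads in Hdac3-deleted and 25.9 and 32.9 in wild-type libraries (log2 fold change 1.26, limma adjusted p = 0.0275). Its neighbour chr3:32417727-32417973 held 73.9 and 78.4 reads in Hdac3-deleted and 41.2 and 23.8 in wild-type libraries (log2 fold change 1.25, limma adjusted p = 0.0299). At chr3:32403062-32403270, 13.3 kb before them, the direction was opposite, with 37.0 and 42.5 reads in Hdac3-deleted and 83.7 and 99.8 in wild-type libraries (log2 fold change -1.18, limma adjusted p = 0.0196), the largest fall among the members that passed. Broad and strongly open, chr3:32396430-32398050 held 1602 and 1760 reads in Hdac3-deleted and 1636 and 1671 in wild-type libraries. These 3 calls were lost without some libraries: at chr3:32416604-32416801 limma gave adjusted p of 0.144 and 0.166 without Hdac3-deleted replicate 1 and wild-type replicate 1, and at chr3:32417727-32417973 0.0761, 0.0785 and 0.215 without Hdac3-deleted replicates 1 and 2 and wild-type replicate 2. At chr3:32403062-32403270 it gave 0.0523, 0.0838 and 0.158 without Hdac3-deleted replicate 1 and wild-type replicates 1 and 2, and DESeq2 did not call the 2 higher sites (0.0571 and 0.0800).

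Btg2 encodes an antiproliferative cofactor of mRNA deadenylation that p53 induces. Of the 21 sites of its window 1 was higher and 0 were lower (4.76% and 0%, against 11.7% and 8.9% of all sites). The higher site, chr1:134105166-134105465, held 89.9 and 87.7 reads in Hdac3-deleted and 40.5 and 47.6 in wild-type libraries (2.01-fold, limma adjusted p = 0.0401). Leaving out any 1 of the 4 libraries ended this call (limma adjusted p of 0.0690 to 0.214), as did scaling to filtered tags (0.0705), loess scaling (0.0561) and DESeq2 (0.0916). Of all 218 sites the most open was chr1:134092799-134094207, with 2131 and 2362 reads in Hdac3-deleted and 2449 and 2214 in wild-type libraries, which overlapped (log2 fold change -0.05, 95% confidence interval -0.23 to 0.12).

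Sesn1 encodes a stress-induced protein that restrains mTORC1. None of its 12 sites passed in limma, edgeR or DESeq2, 3 had an unadjusted limma p under 0.05, and 3 are higher at an FDR under 0.05 in the authors' deposited table. At 6 sites both Hdac3-deleted libraries lay above both wild-type libraries and at 1 below them (50% and 8.33%, against 30.1% and 30.5% of all sites). The genotypes were thus separated at 58.3% of sites, against 60.6% of all sites. The site nearest to the threshold, picked out after its values were seen, was chr10:41984096-41984596, with 184 and 178 reads in Hdac3-deleted and 72.4 and 149 in wild-type libraries (log2 fold change 0.80, 95% confidence interval 0.17 to 1.42, limma adjusted p = 0.0681). In this window the most open site, chr10:41809537-41810854, held 1300 and 1356 reads in Hdac3-deleted and 1310 and 1404 in wild-type libraries and overlapped.

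**Figure D3:**
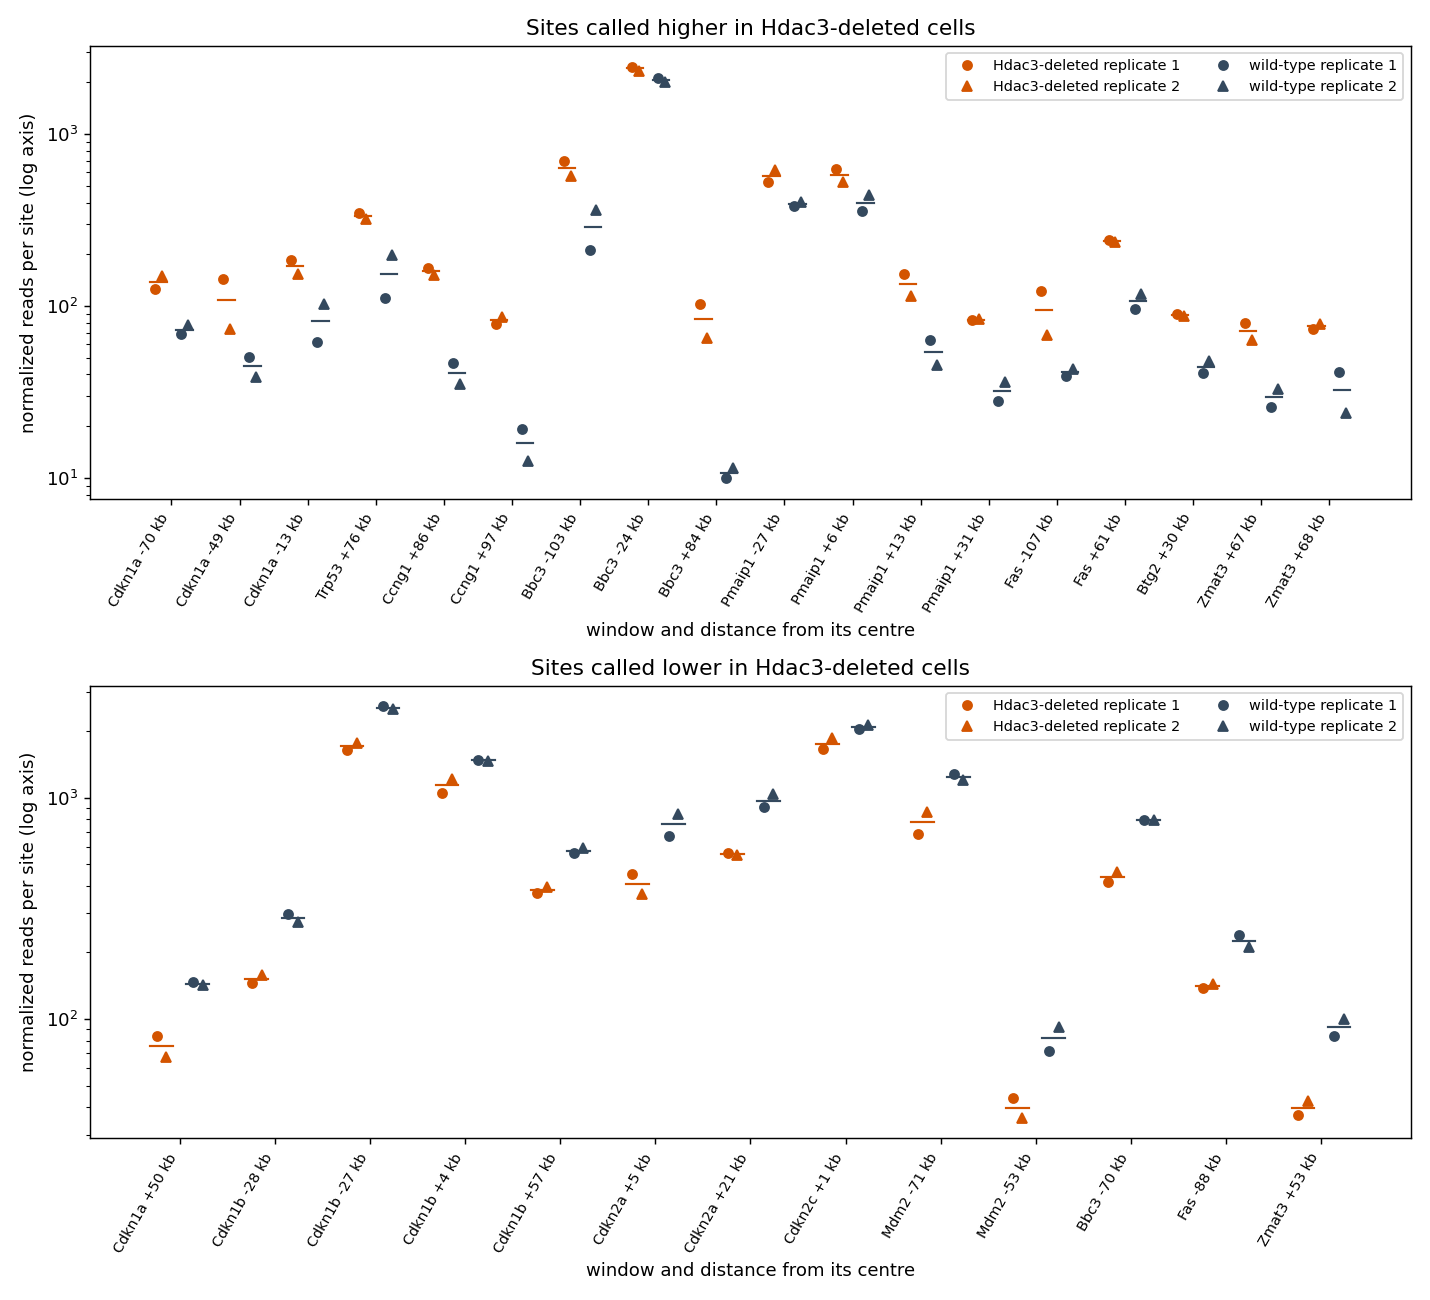
Normalized reads per site (log axis) in each library at the 18 sites called higher (upper panel) and the 13 called lower (lower panel), labelled by window and distance from its centre; orange marks are Hdac3-deleted and dark marks wild-type libraries, circles replicate 1, triangles replicate 2, lines group means. The gap is widest at the Bbc3 site with 103 and 65.1 reads in Hdac3-deleted and 9.96 and 11.3 in wild-type libraries. In no site do the genotypes overlap, which the test that chose the sites favours.

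Across the windows, sums of all sites separated the genotypes in some loci only. Both Hdac3-deleted libraries lay below both wild-type libraries for Cdkn1b (ratio 0.847), Cdkn2a (0.653), Cdkn2c (0.872) and Mdm2 (0.906), and above them for Trp53 (1.13), Bax (1.08), Pmaip1 (1.12) and Zmat3 (1.06). For the other 6 windows the libraries overlapped, with ratios between 0.963 and 1.05. Of all single sites, 30.1% had both Hdac3-deleted libraries above both wild-type libraries and 30.5% below. Sums over windows elsewhere were not made, so how often such sums separate the genotypes is not known. The Ccng1 and Bbc3 windows, with the largest single rises, had ratios of 1.05 and 1.01. Between adjacent called sites of a window the direction was the same in 13 of 19 pairs; the pairs share libraries, and no test was made.

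**Figure D4:**
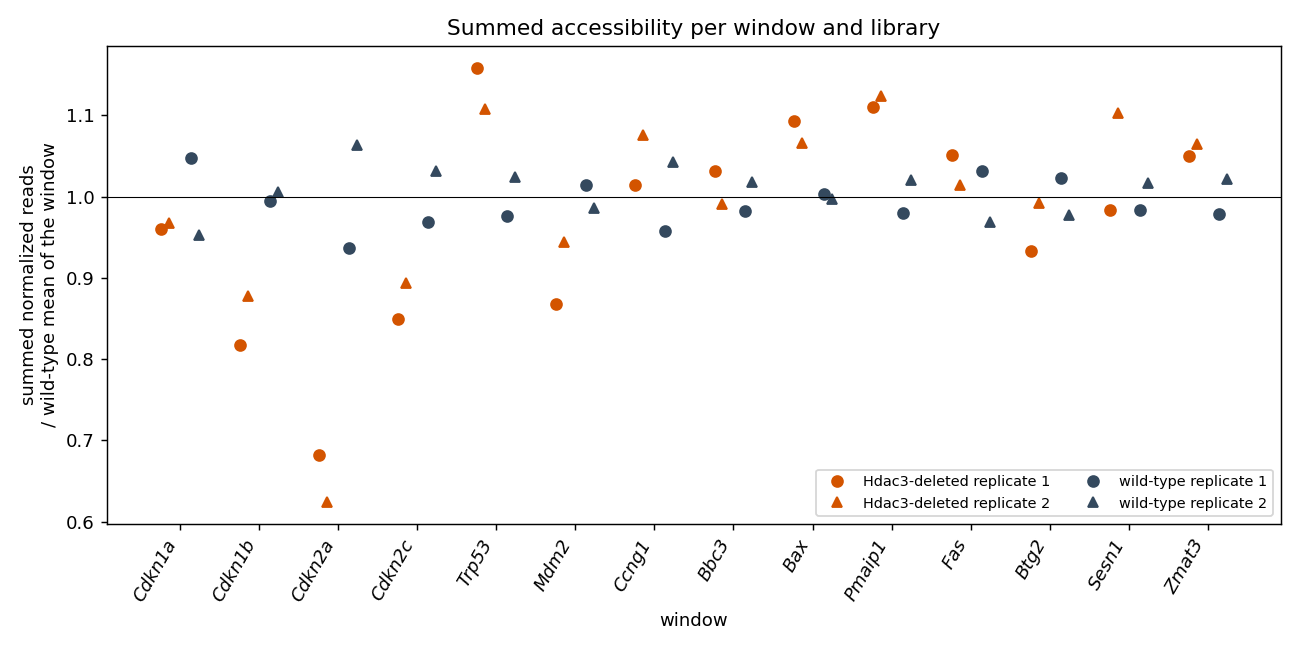
Summed normalized reads of all sites in each window, divided by the window's wild-type mean, for each Hdac3-deleted (orange) and wild-type (dark) library; circles are replicate 1 and triangles replicate 2, and the axis does not start at 0. The Hdac3-deleted libraries sit lowest in the Cdkn2a window, at a mean ratio of 0.653, and highest in the Trp53 window, at 1.13.

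Width and separate peak calls gave a further description. Among 25 members at least 1000 bp wide, 2 rose and 4 fell, beside 169 and 953 of 6039 sites of that width in the whole table. Among 84 narrower than 300 bp, 7 rose and 4 fell, beside 2827 and 1329 of 27530. In the authors' peak lists, called in each library by itself, 150 members (68.8%) had a peak in all 4 libraries, beside 65.4% of all sites. A peak in both Hdac3-deleted libraries and in no wild-type library was found at 11 members (5.05%, against 4.35% of all sites), and the reverse at 20 (9.17%, against 8.84%). The authors' deposited table gives an FDR under 0.05 to 41 members, 21 higher and 20 lower (18.8%, against 25.1% of all sites in either direction, 15.3% higher and 9.8% lower), and these include 26 of the 31 sites called by limma, with 0 in the opposite direction.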

How the data were processed

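Per the file headers, the authors called peaks in each library by itself with MACS 2.0.10.20131216 without a control, with a q cutoff of 0.001, an extension of 140 bp and at most 1 tag at a position; the name of the input describes it as filtered, without duplicates and shifted. The builds mm10 and dm3 and the tools DiffBind 1.10.2, MACS2 2.0.10, edgeR, SAMtools and Bowtie2 2.2.4 are listed, with no role, per the submitters' processing notes. Each peak of the deposited lists has a pileup signal, a fold enrichment (a ratio) and −log10 p-values and q-values; here the lists served for overlap (at least 1 bp) and q cutoffs. In the deposited site table each library has a signal column of normalized reads, log2 columns of genotype means and their difference, and p-value and FDR columns from the authors' own comparison. Columns were matched to libraries through the name of each sample's peak file, by which their letters cross the replicate numbers (A is Hdac3-deleted replicate 2 and wild-type replicate 1; no label says what the letters mark); positions are as in the table, whose starts lie 1 bp before a peak start for 100% of sites.

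Values were whole multiples of 1 read (0.999, 1.33, 0.664 and 1.13 normalized reads for Hdac3-deleted replicates 1 and 2 and wild-type replicates 1 and 2) for 100% of values within 0.001 reads; edgeR 4.0.16 on these reads called 14618 sites. No Drosophila chromosome occurs in the table, so the added cells could not be used for scaling here and a shift of all sites together was not analysed. The main test was limma 3.58.1 (R 4.3.3) with a variance trend on log2(value + 1), with no filter, no covariate and Benjamini-Hochberg adjustment over all 69709 sites; fold changes on this scale understate low sites. DESeq2 1.42.0, other scalings, pseudocounts, a filter, thresholds, the replicate block and left-out libraries were alternatives. Where a library was left out, the single remaining one was taken to vary as those of the other genotype do. The fit was tested on simulated data.

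Named sites were, per window, the most open one and the called site with the largest log2 change per direction, plus the 10 largest per direction; 7 further called sites are given so that every called site is described. The windows and rules were chosen with earlier results of these data known. Pathway genes outside the windows, cell type markers, motifs and sequences need a mouse annotation or genome and were not analysed here, so neither the sort nor the Hdac3 deletion was checked.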

Additional observations from a re-analysis of the deposited data

How the results depend on the processing

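Of the 31 called members, 7 (6 higher, 1 lower) passed in each of the up to 15 other fits that tested them, and 0 changed direction in any. Among named sites, no called value changed sign. Without 1 library each, the members had 9 to 17 higher and 7 to 15 lower calls, and all sites 4235 to 7925 higher and 2261 to 6758 lower calls. At an adjusted p under 0.01, 7 members were higher and 6 lower, and 3802 and 2642 of all sites; under 0.1, 25 members were higher and 20 lower, and 10517 and 8762 of all sites. Scaling to filtered tags gave 13 higher and 2 lower members and 5784 higher and 2958 lower sites; lower calls lost more, so the higher share of calls was 66.2% in all sites (56.7% with the deposited scaling) and 86.7% in the members (58.1%). Sites nearer to the window centres held 8 of the higher and 9 of the lower calls (6.67% and 7.5% of these sites, against 11.7% and 8.9% of all sites). With a −log10 q of at least 10, 7 members had peaks in Hdac3-deleted libraries only (11 without this cutoff). Same-numbered libraries deviated in opposite ways (correlation across sites -0.104), so the numbers are not taken to pair samples. The replicate block gave 19 higher and 13 lower members, and 8111 higher and 6106 lower of all sites. The crossed block, added after seeing the data, equals pairing by the letters A and B of the deposited columns. It gave 22 higher and 24 lower members, and 10588 higher and 8817 lower of all sites. No scaling moved the median log2 fold change of all sites by over 0.1; that of the members stayed between -0.02 and 0.03. Sites of few reads are limited by depth: the lowest member held 10 reads in a library.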
